A study of Mus musculus with 23 samples.

Results

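The interferon and guanylate-binding protein genes described here are 34 listed genes, matched by the gene symbol annotated to the array's probe sets. For each gene the probe set that names no other gene and has the highest mean over all arrays was taken. Of the 34 genes, 32 had such a probe set, out of 18193 genes on the array, and all 32 passed the filter on low signal that left 13826 genes to be tested. Ifi44, and Isg15, whose ubiquitin-like product is attached to other proteins, had no probe set of their own and have no value here. The list falls into 17 genes best known as targets of type I interferon, 15 of them measured, and 17 genes best known as targets of interferon-gamma, all of them measured. Many genes of either list answer to both kinds of interferon, so the lists name a leading response and not an exclusive one.

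The series holds 23 Affymetrix 3' arrays of liver RNA from male C3H mice, 1 array per sample. Wild-type mice on a diet free of phenobarbital gave 5 arrays (wild-type control) and wild-type mice given 0.05% phenobarbital in the diet for 12 weeks gave 4 (wild-type phenobarbital). Mice with a knockout of Ctnnb1, the gene of β-catenin, gave 7 arrays on the phenobarbital-free diet (knockout control) and 7 on 0.05% phenobarbital for 12 weeks (knockout phenobarbital). In the knockout the albumin promoter drives Cre recombinase, so that hepatocytes lose the floxed part of Ctnnb1 and the other liver cells keep it. The Cre and loxP lines had been crossed back into C3H/N. For the controls the labels give water as vehicle, and they state neither the mice's age nor the Cre and loxP status of the wild types. They do not say that replicates are separate animals, and p-values then measure only the spread between these samples, which may be technical. Phenobarbital activates the nuclear receptor CAR and promotes liver tumours in mice, and β-catenin carries the Wnt signal, which sets the zonation of hepatocytes. The design sets the response to phenobarbital with β-catenin in hepatocytes against that without it.

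Type I interferons bind the receptor of Ifnar1 and Ifnar2 and act through a complex that holds Stat2 and Irf9 and binds the interferon-stimulated response element (ISRE) of antiviral genes. Interferon-gamma, made mainly by T and NK cells, binds the receptor of Ifngr1 and Ifngr2 and acts through the gamma-activated site (GAS) and through Irf1. Its targets include the guanylate-binding proteins, the immunity-related GTPases, the immunoproteasome and the chemokines Cxcl9 and Cxcl10. In liver, hepatocytes, endothelium and macrophages all respond to either kind.

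Stretches upstream of an annotated start of 8 members show the 2 elements in members that were called different between genotypes. They were chosen after the results were known. The sequences are those of RefSeq on GRCm38.p6, read 5′ to 3′ on the gene's strand, with every match of the searched letters in capitals in either orientation.
Ifit1: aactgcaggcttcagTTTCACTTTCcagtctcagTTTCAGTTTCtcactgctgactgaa
Ifit3: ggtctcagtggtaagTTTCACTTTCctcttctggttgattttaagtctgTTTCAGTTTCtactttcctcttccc
Oas1a: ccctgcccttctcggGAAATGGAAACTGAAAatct
Gbp2: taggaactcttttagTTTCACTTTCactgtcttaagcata
Gbp3: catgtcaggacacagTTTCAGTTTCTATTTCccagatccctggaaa
Irgm1: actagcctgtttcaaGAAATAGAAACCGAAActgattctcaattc
Irf8: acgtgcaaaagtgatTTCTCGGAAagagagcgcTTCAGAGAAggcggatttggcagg
Psmb8: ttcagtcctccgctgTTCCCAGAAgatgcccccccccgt
In the first 6 the capitals are matches to the core of the ISRE, searched on both strands as GAAA, any 2 bases and GAAA again, with overlapping matches in Oas1a, Gbp3 and Irgm1. In Irf8 and Psmb8 they are matches to the GAS, searched as TTCNNNGAA, which reads the same on both strands. The stretches lie at chr19:34640770-34640828 (Ifit1, plus strand), chr19:34583358-34583431 (Ifit3, plus) and chr5:120907526-120907560 (Oas1a, minus). Those of the GTPases lie at chr3:142620589-142620628 (Gbp2, plus), chr3:142559984-142560029 (Gbp3, plus) and chr11:48871421-48871465 (Irgm1, minus). The last pair lies at chr8:120736172-120736228 (Irf8, plus) and chr17:34198083-34198121 (Psmb8, plus). The stretch of Ifit3 lies inside the gene's annotated span, and those of Oas1a and Gbp3 reach into it.

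RefSeq windows of 300 bases, from 250 before to 50 after an annotated start, were at hand for 27 of the 34 members. The ISRE core stood in 8 of 17 windows of type I genes (47.1%) and in 6 of 15 windows of interferon-gamma genes (40%), against 3.44% of all 32851 windows. The GAS stood in 3 of 17 windows of type I genes (17.6%) and in 5 of 15 of interferon-gamma genes (33.3%), against 8.30% of all windows. The genes with an ISRE core were Bst2, Ifih1, Ifit1, Ifit3, Isg15, Oas1a, Rsad2 and Stat2 in the first list and Cxcl10, Gbp2, Gbp3, Gbp7, Igtp and Irgm1 in the second. The core thus stood in windows of either list. A match is a run of letters and no evidence of a bound factor.

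Signals are log2 values from robust multi-array average (RMA) processing, in which 1 unit is a doubling. The arrays' medians lay between 5.09 and 5.14, and the 40th percentile of each array, used as the floor for low signal, lay between 4.52 and 4.60. Ctnnb1 stood at 12.18 to 12.23 in wild-type control, 12.03 to 12.10 in wild-type phenobarbital, 12.11 to 12.42 in knockout control and 12.08 to 12.37 in knockout phenobarbital arrays. It was not called in any comparison (knockout control against wild-type control: log2 change 0.048 ± 0.054 SE, adjusted p = 0.538), and the sources used here do not place its probe set inside or outside the deleted exons. Knockout control arrays 2, 6 and 7 got the lowest weights of all arrays when the weights were estimated from the data (0.54, 0.324 and 0.21), and counts are given with and without them. Tests are limma's moderated test over all 23 arrays, and a gene is called where p, adjusted by the Benjamini-Hochberg method over the 13826 genes, is under 0.05. Hepatocyte markers stood at a mean level between 14.21 and 14.38 in every array, far above the floor.

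Without phenobarbital, 19 of the 32 measured members were called higher in knockout than in wild-type liver and 0 were called lower. Over all genes tested, 14.8% were called higher and 10.1% lower. The median log2 change of the members was 1.26, against -0.0047 over all genes. All 32 members had a positive change, between 0.36 for Irf9 and 3.49 for Gbp8. Of these, Oasl2 and Mx1 were under the floor in all 9 wild-type arrays and passed the filter through knockout arrays alone. Their positive changes are thus no support, though they count in the medians and list means given here. Called were 8 of the 15 type I genes, with a list median of 1.16, and 11 of the 17 interferon-gamma genes, with a list median of 1.33. At an unadjusted p under 0.05 the count was 31, all but Bst2, against 2912 of the 13826 genes tested. Oasl2 and Mx1 are among the 31 and are no support there either. In 16 members every knockout control array lay above every wild-type control array, against 6.98% of all genes, and in 0 members below, against 3.65%. In bulk liver, fewer cells of a type and less RNA per cell cannot be told apart, and the same holds for more of either.

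With phenobarbital, 6 members were called higher in knockout than in wild-type liver (Bst2, Irf8, Gbp2, Gbp8, Iigp1 and Psmb8) and 0 lower, where 11.9% of all genes were called higher and 8.12% lower. The median log2 change was 0.94 over the members, 0.75 over the type I list and 1.22 over the interferon-gamma list, against 0.0024 over all genes. At an unadjusted p under 0.05, 18 members were higher and 1, Stat2, was lower, against 2698 and 2039 of the 13826 genes tested. Every knockout phenobarbital array lay above every wild-type phenobarbital array in 16 members, against 11.2% of all genes, and below in 0 members, against 7.38%. Of the 16, 12 were of the interferon-gamma list and 4 of the type I list. Among the 4 was Oasl2, which passed the filter through knockout arrays alone.

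Both counts change with the arrays that are fitted. Without phenobarbital the count of 19 was 2 with array weights, 1 when only the 2 groups compared were fitted and 1 without knockout control arrays 2, 6 and 7. In these fits 11%, 9.19% and 7.1% of all genes were called higher, so the members' share was then below that of all genes. Leaving out 1 array gave 7 to 28: 7 without wild-type control 2, 8 without 4, 11 without 3 or 5, 12 without knockout control 1 or 2, 9 without 6, 11 without 7, 27 without 3 and 28 without 4 or 5, where the share of all genes was 11.7% to 16.6%. With phenobarbital the count of 6 was 19 with array weights, 15 with only the 2 groups fitted and 22 without knockout control arrays 2, 6 and 7, where 19.3%, 15.1% and 17.4% of all genes were called higher. Leaving out 1 array there gave 2 without wild-type phenobarbital 1, 3 or 4, 4 without 2, 3 without knockout phenobarbital 4, 5 or 7, 13 without 2, 14 without 6 and 17 without knockout control 7, with 7.4% to 14.2% of all genes. Where the count was 2, the members' share was below that of all genes. Called members kept their direction in all alternatives run, 33 for each call and 32 for the interaction. Stat2 without phenobarbital and Iigp1 with phenobarbital were the calls that held in all 33. Of the 2 probe sets of Iigp1, with changes of 0.73 and 0.84 with phenobarbital, 1 was called.

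**Figure D1:**
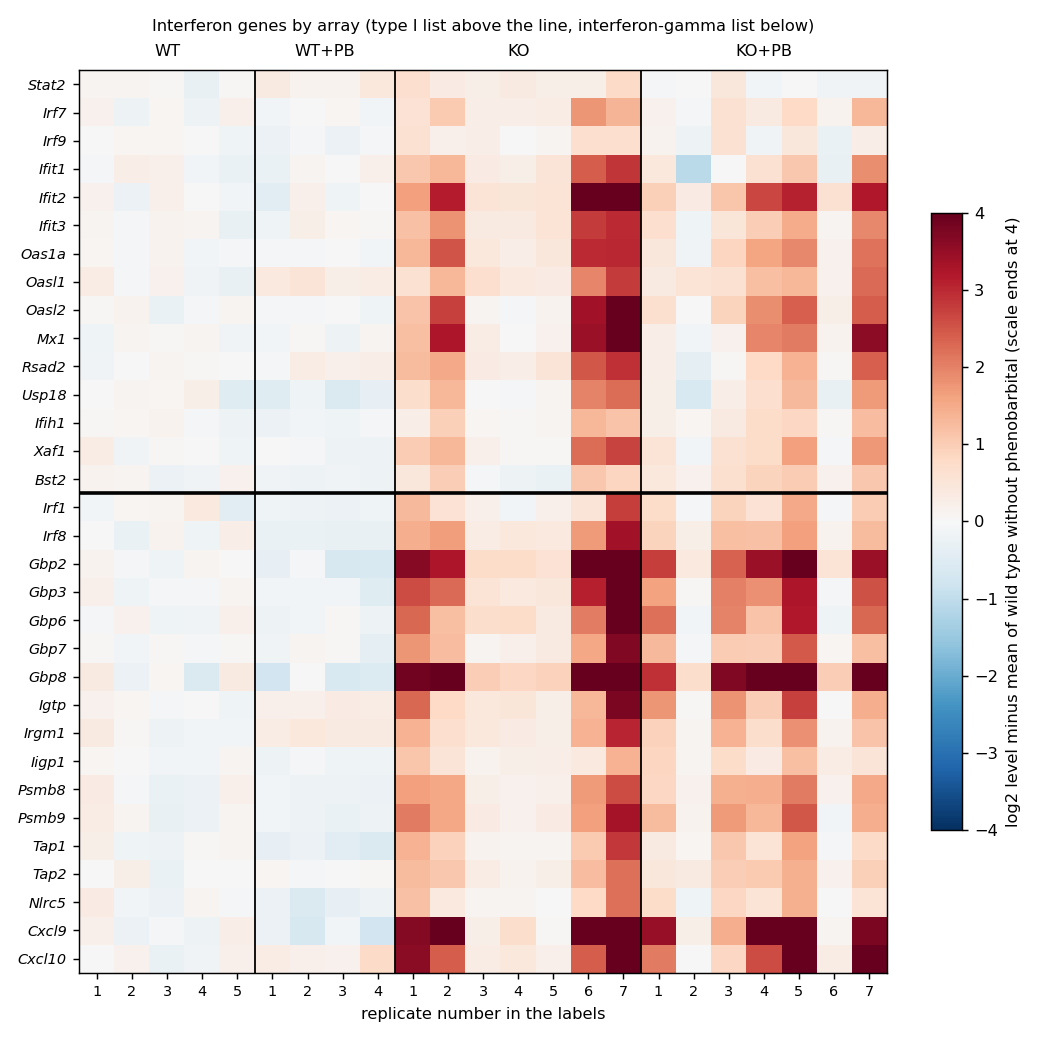
Each row is a measured member and each column an array, numbered as in the labels; WT and KO are wild type and knockout, and PB is phenobarbital. Colour gives the log2 level minus the mean of the wild-type control arrays, red for higher and blue for lower, with changes beyond 4 drawn at the end of the scale. Knockout control arrays 1, 2, 6 and 7 and knockout phenobarbital arrays 1, 3, 4, 5 and 7 are red across most rows, and the other knockout arrays are pale.

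Phenobarbital left the members of wild-type liver without a call. In the wild type 0 members were called higher and 0 lower, against 1.95% and 1.90% of all genes. At an unadjusted p under 0.05 1 was higher (Stat2) and 0 lower, against 1046 and 1096 of the 13826 genes tested. The median change was -0.11, and 9 of 32 members were positive. The test takes 1 variance per gene from all 4 groups. The members' median SD was 0.18 and 0.12 in the wild-type groups, against 1.07 and 0.78 in the knockout groups. Small changes within the wild type could thus go uncalled. With only the 2 wild-type groups fitted, 0 members were called higher and 1, Tap1, lower. In that fit 3.51% of all genes were called higher and 3.21% lower. The arrays of the diets did not overlap in 4 members, 2 higher with phenobarbital (Stat2 and Igtp) and 2 lower (Irf8 and Tap1), against 6.04% and 5.56% of all genes. In the knockout 0 members were called higher and 1, Stat2, lower, against 1.17% and 0.882% of all genes. There the median change was -0.26, with -0.43 for the type I list and -0.19 for the interferon-gamma list, and Bst2 was the member with a positive change (0.22). The arrays overlapped in all members, where 0.636% of all genes were free of overlap and higher and 0.340% lower. At an unadjusted p under 0.05 0 members were higher and 2 lower, Stat2 and Ifit1, against 1104 and 926 of the 13826 genes tested. The interaction, which is the phenobarbital change in the knockout minus that in the wild type, called 0 members higher and 1, Stat2, lower, against 0.354% and 0.521% of all genes. Its median was -0.49 over the type I list, where 2 of 15 genes were positive, and 0.0097 over the interferon-gamma list, where 9 of 17 were positive. These comparisons share their control arrays with those between genotypes.

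Of the 6 measured transcription factors, 3 (Stat2, Irf7 and Irf8) were called higher in knockout than in wild-type liver without phenobarbital. With it 1, Irf8, was called higher, where 14.8% and 11.9% of all genes were called higher without and with phenobarbital. Stat2, the partner of Irf9 in the ISRE-binding complex, measured 6.84, 6.81, 6.75, 6.41 and 6.77 in the wild-type control arrays and 7.09, 6.87, 6.85 and 7.15 in the wild-type phenobarbital arrays. In the knockout control arrays it stood at 6.95 at the lowest, 7.03 at the median and 7.49 at the highest, and in the knockout phenobarbital arrays at 6.57 at the lowest, 6.64 at the median and 7.16 at the highest. Without phenobarbital every knockout array was above every wild-type array, by 0.41 ± 0.11 (log2 change ± SE, adjusted p = 0.0112), and with it the groups overlapped, with a change of -0.27 (adjusted p = 0.108). Stat2 was the one member whose level was called to move with phenobarbital. It fell by 0.41 ± 0.10 in the knockout (adjusted p = 0.036) and had a change of 0.27 ± 0.13 in the wild type (adjusted p = 0.3), where the groups did not overlap. The interaction was -0.68 ± 0.16 (adjusted p = 0.0458). The call in the knockout held in 20 of 33 alternatives, with adjusted p between 0.00803 and 0.109, and that of the interaction in 11 of 32, between 0.00572 and 0.126. Without wild-type control array 4 the interaction was -0.61 and not called (adjusted p = 0.086). A further probe set of Stat2 gave -0.40 in the knockout and -0.89 for the interaction, each also called, and in the wild type 0.49 with phenobarbital, which was called where the first was not.

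Irf7, which amplifies the type I response, measured 7.12, 6.73, 7.01, 6.73 and 7.14 in wild-type control and 6.85, 6.92, 7.02 and 6.84 in wild-type phenobarbital arrays. Its level in the knockout was 7.21 at the lowest, 7.51 at the median and 8.71 at the highest on the control diet and 6.90 at the lowest, 7.31 at the median and 8.26 at the highest on phenobarbital. The control groups did not overlap (change 0.79 ± 0.24, adjusted p = 0.0215), and with phenobarbital the change was 0.52 (adjusted p = 0.162). Irf8, a factor of macrophages, dendritic cells and B cells that acts with Irf1 on interferon-gamma targets, measured 5.81, 5.53, 5.93, 5.63 and 6.04 and 5.51, 5.53, 5.48 and 5.50 in the same wild-type groups. In the knockout it measured 6.10 at the lowest, 7.24 at the median and 9.15 at the highest without phenobarbital, and 5.92 at the lowest, 6.97 at the median and 7.44 at the highest with it. Neither comparison of genotypes overlapped, with changes of 1.33 ± 0.38 without (adjusted p = 0.0151) and 1.22 ± 0.41 with phenobarbital (adjusted p = 0.0396). Irf1, Irf9 and Nlrc5, the transactivator of MHC class I genes, were not called in any comparison. Irf1 ranged from 8.17 to 9.01 in wild-type control and from 8.52 to 11.41 in knockout control arrays, with a change of 0.78 (adjusted p = 0.114), and all knockout phenobarbital arrays (8.56 to 10.14) were above all wild-type phenobarbital arrays (8.40 to 8.46).

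Among the 10 measured antiviral effectors, 6 were called higher in knockout liver without phenobarbital, against 14.8% of all genes, and 1, Bst2, with it, a share no higher than the 11.9% of all genes. Ifit2, of the tetratricopeptide-repeat proteins that bind viral or cellular RNA, had the largest change of the type I list. It measured 5.18, 4.77, 5.21, 5.0 and 4.92 in wild-type control and 4.59, 5.22, 4.83 and 5.0 in wild-type phenobarbital arrays. Knockout control arrays gave 5.50 at the lowest, 6.67 at the median and 10.77 at the highest, and knockout phenobarbital arrays 5.34 at the lowest, 6.13 at the median and 8.22 at the highest. Neither comparison overlapped, but control arrays 3, 4 and 5 stood at 5.55, 5.50 and 5.56, close to the highest wild-type value of 5.21, while array 7 stood at 10.77. The change was 2.31 ± 0.74 without phenobarbital (adjusted p = 0.0278) and 1.81 ± 0.80 with it (adjusted p = 0.111).

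Ifit3 and Ifit1 are neighbours of Ifit2 on chromosome 19. Ifit3 measured 7.19, 7.03, 7.22, 7.17 and 6.77 in wild-type control, 6.89, 7.30, 7.14 and 7.13 in wild-type phenobarbital, and in knockout control arrays 7.43 at the lowest, 8.24 at the median and 10.07 at the highest. Its knockout phenobarbital arrays stood at 6.90 at the lowest, 7.75 at the median and 9.01 at the highest. The control groups did not overlap (change 1.42 ± 0.42, adjusted p = 0.0177), whereas the phenobarbital groups did (0.75, adjusted p = 0.247). Ifit1 measured 6.33, 6.68, 6.61, 6.30 and 6.14 in wild-type control and 6.15, 6.52, 6.44 and 6.62 in wild-type phenobarbital arrays. In the knockout it was 6.64 at the lowest, 7.49 at the median and 9.28 at the highest on the control diet, and 5.34 at the lowest, 6.83 at the median and 8.28 at the highest on phenobarbital. Its groups overlapped in either comparison, narrowly without phenobarbital, where 1 knockout array was under the highest wild-type array (change 1.25 ± 0.44, adjusted p = 0.0418). With phenobarbital the change was 0.36 (adjusted p = 0.621), and knockout phenobarbital array 2, at 5.34, was the lowest of all 23 arrays.

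Oas1a, an oligoadenylate synthetase that senses double-stranded RNA and switches on RNase L, measured 7.47, 7.36, 7.53, 7.29 and 7.32 in wild-type control and 7.33, 7.34, 7.41 and 7.28 in wild-type phenobarbital arrays. Knockout control arrays measured 7.66 at the lowest, 8.71 at the median and 10.40 at the highest, and knockout phenobarbital arrays 7.24 at the lowest, 8.25 at the median and 9.57 at the highest. The control groups were apart, by 1.57 ± 0.47 (adjusted p = 0.0202), and the phenobarbital groups overlapped, with 1.06 (adjusted p = 0.143). Oasl1, a synthetase-like protein without that enzyme activity, measured 6.92, 6.58, 6.81, 6.48 and 6.33 and 7.03, 7.13, 6.87 and 6.91 in the wild-type control and phenobarbital arrays. On the control diet its knockout arrays gave 6.96 at the lowest, 7.30 at the median and 9.42 at the highest, and on phenobarbital 6.80 at the lowest, 7.23 at the median and 8.90 at the highest. Only the control groups were free of overlap (change 1.16 ± 0.37, adjusted p = 0.0269), the phenobarbital change being 0.57 (adjusted p = 0.322).

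Rsad2, whose product viperin makes a chain-terminating nucleotide, measured 7.72, 7.83, 7.97, 7.91 and 7.86 in wild-type control and 7.78, 8.17, 8.06 and 8.12 in wild-type phenobarbital arrays. The knockout arrays stood at 8.12 at the lowest, 9.11 at the median and 10.79 at the highest without phenobarbital, and with it at 7.51 at the lowest, 8.12 at the median and 10.24 at the highest. The difference without phenobarbital was 1.32 ± 0.44 (adjusted p = 0.0338) and free of overlap, and that with phenobarbital was 0.48 (adjusted p = 0.498). Of the 3 probe sets of Rsad2, 2 were called. Bst2, or tetherin, which holds budding virus at the cell surface, showed another order. It measured 10.10, 10.06, 9.72, 9.82 and 10.13 in wild-type control and 9.81, 9.76, 9.81 and 9.77 in wild-type phenobarbital arrays, with 9.70 at the lowest, 10.43 at the median and 11.05 at the highest in knockout control arrays. Its knockout phenobarbital arrays gave 10.14 at the lowest, 10.61 at the median and 11.03 at the highest, all above the wild type on phenobarbital. The change was 0.41 without phenobarbital (adjusted p = 0.18, overlapping) and 0.81 ± 0.24 with it (adjusted p = 0.0198), but the interaction, 0.40, was not called (adjusted p = 0.784).

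Oasl2, Mx1 and Xaf1 were the effectors not called in any comparison. Oasl2 and Mx1, a dynamin-like GTPase that blocks influenza viruses, were under the floor in all 9 wild-type arrays, so their changes set a signal against an array's background. Oasl2 reached 8.08 and Mx1 8.80 in knockout control array 7, while in 3 and 2 arrays of that group they were under the floor. Xaf1, the effector with the highest mean of the uncalled, ranged from 6.48 to 6.95 in wild-type control and from 6.71 to 9.35 in knockout control arrays (change 1.08, adjusted p = 0.0525). The sensor of long double-stranded RNA Ifih1 and the Isg15 protease Usp18, which also dampens the type I receptor, had changes of 0.56 (adjusted p = 0.0688) and 0.89 (adjusted p = 0.105) without phenobarbital and were not called.

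**Figure D2:**
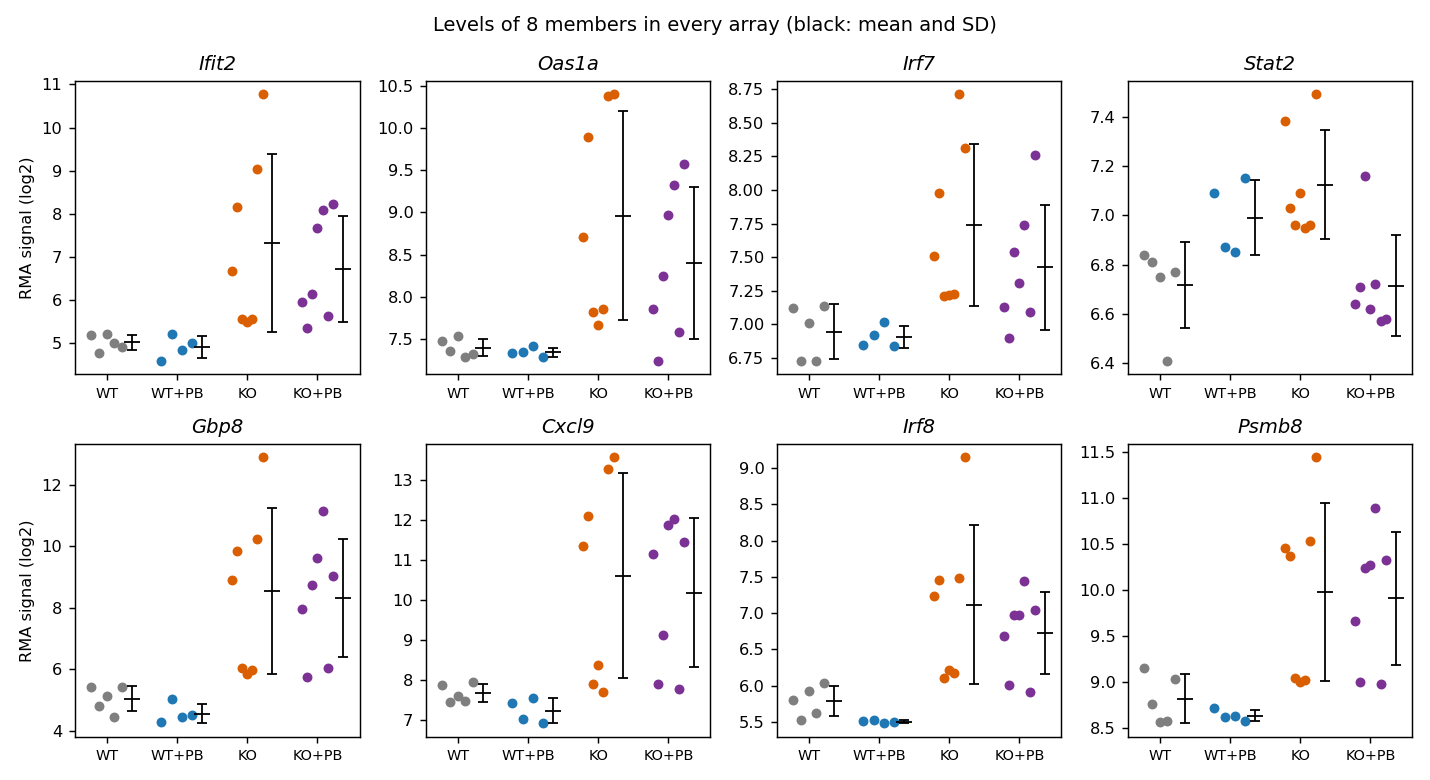
The plots give the RMA signal (log2) of 8 members in each array, by group (WT and KO, wild type and knockout; PB, phenobarbital), with group mean and SD in black. In Ifit2, Oas1a, Gbp8, Cxcl9 and Psmb8 the knockout arrays run from values near the wild type to values far above. In Stat2 the knockout phenobarbital arrays apart from array 3, at 7.16, lie at or below the wild-type control arrays' 6.84.

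Of the 8 interferon-induced GTPases, 6 were called higher in knockout liver without phenobarbital and 3 with it, against 14.8% and 11.9% of all genes. Among the 6 were Gbp8, with the largest change of the interferon-gamma list without phenobarbital, and Iigp1, with the smallest. Guanylate-binding proteins are large GTPases that attack the vacuoles of intracellular pathogens. Gbp8 measured 5.41, 4.81, 5.13, 4.45 and 5.41 in wild-type control and 4.27, 5.02, 4.44 and 4.50 in wild-type phenobarbital arrays, with 1 and 3 of these under the floor. Knockout control arrays gave 5.86 at the lowest, 8.90 at the median and 12.91 at the highest, and knockout phenobarbital arrays 5.76 at the lowest, 8.76 at the median and 11.15 at the highest. All knockout arrays of a diet were above all wild-type arrays of it. The change was 3.49 ± 1.03 without phenobarbital (11.3-fold, adjusted p = 0.0174) and 3.77 ± 1.10 with it (adjusted p = 0.0198). The change with phenobarbital sets a signal against an array's background, so its size is not exact and no fold is given.

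Gbp2 measured 5.13, 4.91, 4.81, 5.07 and 4.95 in wild-type control arrays and 4.66, 4.89, 4.34 and 4.36 in wild-type phenobarbital arrays, 2 of the latter under the floor. It stood in knockout control arrays at 5.55 at the lowest, 8.20 at the median and 11.71 at the highest, and in knockout phenobarbital arrays at 5.38 at the lowest, 7.73 at the median and 10.01 at the highest. Neither comparison overlapped, with 2.81 ± 0.87 without (adjusted p = 0.0227) and 2.98 ± 0.93 with phenobarbital (adjusted p = 0.028). Gbp3 measured 6.88, 6.51, 6.64, 6.60 and 6.79 in wild-type control and 6.56, 6.57, 6.56 and 6.20 in wild-type phenobarbital arrays. Its knockout control arrays gave 7.07 at the lowest, 8.96 at the median and 11.49 at the highest, and its knockout phenobarbital arrays 6.61 at the lowest, 8.50 at the median and 9.91 at the highest. The arrays of the genotypes did not overlap on either diet, but the change was called without phenobarbital alone (2.03 ± 0.64, adjusted p = 0.0252, against 1.81, adjusted p = 0.0652), and the interaction of -0.22 was not called (adjusted p = 0.98).

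Gbp6 measured 8.23, 8.43, 8.09, 8.13 and 8.48 and 8.08, 8.17, 8.32 and 8.08 in the wild-type control and phenobarbital arrays. The knockout gave 8.63 at the lowest, 9.48 at the median and 12.78 at the highest on the control diet, and 8.09 at the lowest, 10.25 at the median and 11.46 at the highest on phenobarbital. Without phenobarbital the change was 1.69 ± 0.59, free of overlap (adjusted p = 0.0418), and with it 1.61, overlapping (adjusted p = 0.0782). Guanylate-binding proteins are close paralogs, and Gbp2, Gbp3 and Gbp7 lie side by side on chromosome 3 (chr3:142530336-142638008, GRCm38.p6) and Gbp6 and Gbp8 on chromosome 5, so a probe set of one may also bind RNA of another. The probe set of Gbp2 carries the array maker's mark for probes shared with other transcripts. The further probe set of Gbp2 gave 2.69 and 2.81 in the comparisons without and with phenobarbital, each also called.

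Irgm1 and Iigp1 are immunity-related GTPases, Irgm1 a regulator and Iigp1 an effector at the vacuole. Irgm1 measured 9.62, 9.32, 9.08, 9.17 and 9.17 in wild-type control and 9.56, 9.68, 9.63 and 9.63 in wild-type phenobarbital arrays. Knockout control arrays were at 9.50 at the lowest, 9.95 at the median and 12.32 at the highest, and knockout phenobarbital arrays at 9.39 at the lowest, 10.20 at the median and 11.11 at the highest. The groups overlapped on either diet, and the change without phenobarbital, 1.07 ± 0.37 (adjusted p = 0.0385), was 0.74 without knockout control array 7 (adjusted p = 0.0539). With phenobarbital it was 0.53 (adjusted p = 0.352). Iigp1 measured 12.72, 12.67, 12.54, 12.53 and 12.75 in wild-type control and 12.45, 12.56, 12.48 and 12.46 in wild-type phenobarbital arrays. In the knockout it was 12.78 at the lowest, 13.03 at the median and 14.02 at the highest without, and 12.76 at the lowest, 13.15 at the median and 13.84 at the highest with phenobarbital. Its changes were among the smallest of the list and free of overlap, 0.58 ± 0.19 without (adjusted p = 0.032) and 0.73 ± 0.20 with phenobarbital (adjusted p = 0.0157). Of the uncalled GTPases, Gbp7 and Igtp, the latter ranged from 9.58 to 9.91 in wild-type control and from 9.97 to 13.50 in knockout control arrays, without overlap (change 1.34, adjusted p = 0.0545).

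The 4 genes of class I antigen processing lie next to each other on chromosome 17 (chr17:34182030-34216321, GRCm38.p6). Of these, 3 were called higher in knockout liver without phenobarbital and 1, Psmb8, with it, against 14.8% and 11.9% of all genes. Psmb8 and Psmb9 are catalytic subunits that replace their standard counterparts in the immunoproteasome. Psmb8 measured 9.16, 8.76, 8.57, 8.58 and 9.04 in wild-type control and 8.72, 8.62, 8.63 and 8.58 in wild-type phenobarbital arrays. It was 9.0 at the lowest, 10.37 at the median and 11.44 at the highest in knockout control arrays, and 8.98 at the lowest, 10.24 at the median and 10.89 at the highest in knockout phenobarbital arrays. Without phenobarbital the groups overlapped (change 1.16 ± 0.38, adjusted p = 0.0292), and with it they did not (1.27 ± 0.40, adjusted p = 0.03). Psmb9 measured 8.85, 8.66, 8.24, 8.31 and 8.66 and 8.45, 8.34, 8.27 and 8.35 in wild-type control and phenobarbital arrays. Its knockout values were 8.73 at the lowest, 10.08 at the median and 11.88 at the highest on the control diet, and 8.45 at the lowest, 9.86 at the median and 11.04 at the highest on phenobarbital. The changes were 1.34 ± 0.46 without (adjusted p = 0.0362, overlapping) and 1.38 with phenobarbital (adjusted p = 0.0503, no overlap).

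Tap2, which with Tap1 forms the transporter of peptides into the endoplasmic reticulum, measured 6.88, 7.13, 6.63, 6.91 and 6.91 in wild-type control and 6.96, 6.83, 6.92 and 6.93 in wild-type phenobarbital arrays. Knockout control arrays gave 7.03 at the lowest, 7.98 at the median and 9.08 at the highest, and knockout phenobarbital arrays 7.06 at the lowest, 7.84 at the median and 8.31 at the highest. Control groups overlapped (change 0.92 ± 0.27, adjusted p = 0.0178) and phenobarbital groups did not (0.75, adjusted p = 0.0742). Tap1 was not called. It ranged from 6.36 to 6.81 in wild-type control and from 6.67 to 9.40 in knockout control arrays (change 0.94, adjusted p = 0.0596). Its probe sets disagreed, since the other tested one gave -0.15.

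Cxcl9 and Cxcl10 are secreted chemokines that draw activated T and NK cells. Cxcl9 measured 7.86, 7.44, 7.59, 7.47 and 7.94 in wild-type control and 7.42, 7.02, 7.54 and 6.90 in wild-type phenobarbital arrays. Knockout control arrays measured 7.70 at the lowest, 11.34 at the median and 13.58 at the highest, and knockout phenobarbital arrays 7.77 at the lowest, 11.14 at the median and 12.02 at the highest. Knockout control arrays 3 and 5, at 7.89 and 7.70, were inside the wild-type range, and arrays 6 and 7 were at 13.27 and 13.58. The change was 2.95 ± 0.98 without phenobarbital (7.71-fold, adjusted p = 0.0328) and 2.96 ± 1.05 with it (adjusted p = 0.0508, no overlap). Cxcl10 was not called, although its change without phenobarbital was 2.31 ± 0.92 (adjusted p = 0.0697) and its knockout control arrays, from 5.61 to 12.23, lay just above the wild-type control arrays, from 5.16 to 5.61, at their nearest. Some called members had a further probe set with the same sign but no call without phenobarbital. These were Gbp6 (1.46), Iigp1 (0.79), Psmb8 (0.58) and Cxcl9 (1.61), besides Rsad2.

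**Figure D3:**
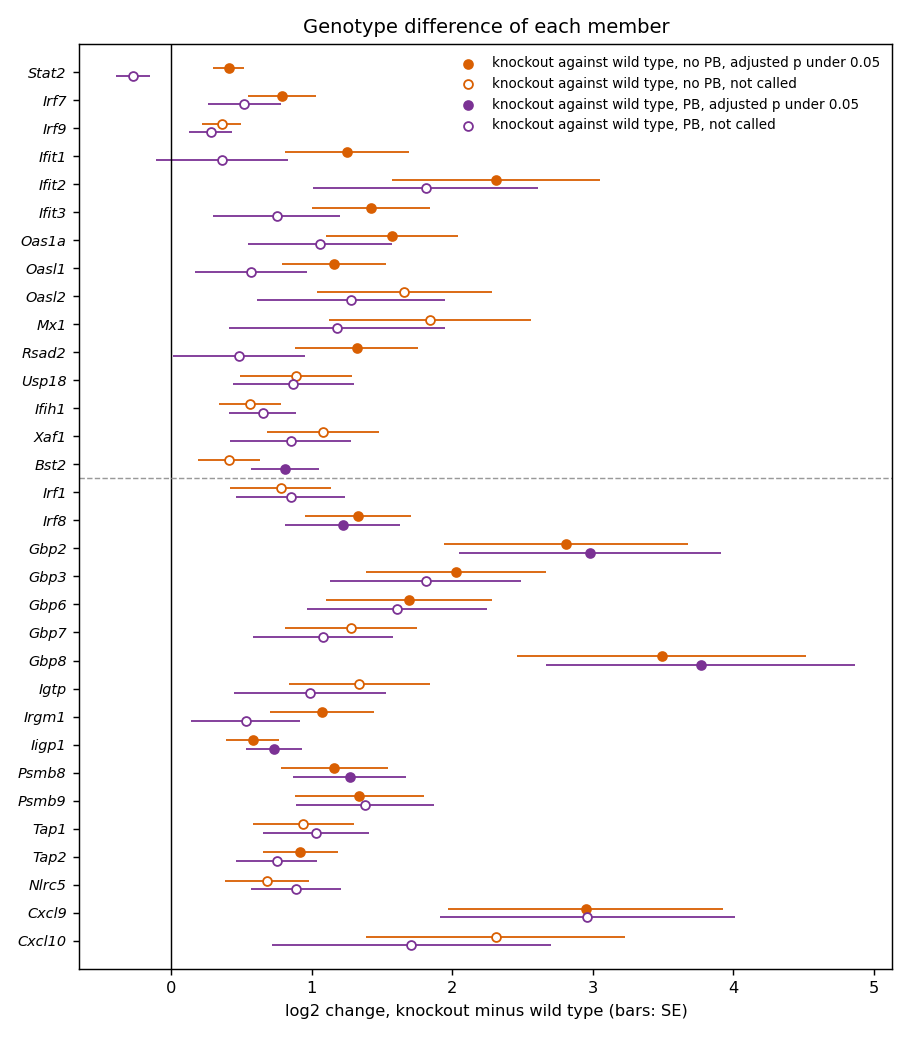
For each member the log2 change of knockout minus wild type is drawn with its SE, without phenobarbital in orange and with it (PB) in purple; filled points have an adjusted p under 0.05. Points lie right of 0 but for Stat2 with phenobarbital (-0.27), and the largest changes, of Gbp8, Cxcl9 and Gbp2, carry SEs near 1.

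The members varied between the arrays of a knockout group more than most genes did. The median SD over arrays was 1.07 in knockout control and 0.78 in knockout phenobarbital arrays, against 0.16 and 0.14 over all genes tested. In these groups 26 and 25 of the 32 members had an SD above the 95th percentile of all genes (0.66 and 0.47). In wild-type control and phenobarbital arrays the members' median SD was 0.18 and 0.12, against 0.12 and 0.094.

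The members were high in the same knockout arrays. Counts here take in Oasl2 and Mx1, which passed the filter through knockout arrays alone. Knockout control arrays 1, 2, 6 and 7 had 32, 31, 31 and 32 of the 32 members above all 9 wild-type arrays, where 21.9%, 25.0%, 28.1% and 29.7% of all genes were above. Arrays 3, 4 and 5 had 20, 13 and 17 members above, against 17.6%, 18.2% and 18.5% of all genes. Among knockout phenobarbital arrays, 1, 3, 4, 5 and 7 had 27, 30, 30, 31 and 31 members above, against 19.7%, 21.1%, 25.5%, 24.7% and 27.3% of all genes. Arrays 2 and 6 had 7 and 8 of the 32 above, a share near the 20.6% and 20.4% of all genes.

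The response of either list per array is the mean, over its measured genes, of the log2 level minus the mean of the wild-type control arrays. The type I list holds Oasl2 and Mx1, which passed the filter through knockout arrays alone. Wild-type arrays lay between -0.11 and 0.075 for the type I list and between -0.20 and 0.16 for the interferon-gamma list. The type I list averaged -0.029 ± 0.073 (SD, n = 4) in wild-type phenobarbital, 1.14 ± 0.99 (n = 7) in knockout control and 0.72 ± 0.70 (n = 7) in knockout phenobarbital arrays. The interferon-gamma list averaged -0.15 ± 0.038, 1.57 ± 1.36 and 1.36 ± 0.94 in the same groups. The SDs in the knockout are nearly as large as the means.

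The lists did not keep 1 ratio between knockout arrays. In knockout control array 6 the type I list stood 2.19 and the interferon-gamma list 2.10 above wild type, in array 2 1.58 and 1.73, and in knockout phenobarbital array 7 1.80 and 1.89. In these 3 arrays the lists were within 0.15 of each other. Knockout control array 1 had 0.92 and 2.15, array 7 2.58 and 3.99, and knockout phenobarbital array 5 1.39 and 2.75. Knockout phenobarbital arrays 1, 3 and 4 had 0.38 and 1.48, 0.51 and 1.50, and 0.99 and 1.61. In those 6 arrays the interferon-gamma list was 0.63 to 1.41 above the type I list. In knockout control arrays 3, 4 and 5 the lists stood at 0.26 and 0.37, 0.16 and 0.36, and 0.26 and 0.30, and in knockout phenobarbital arrays 2 and 6 at -0.11 and 0.13, and 0.057 and 0.14.

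Type I minus interferon-gamma was 0.12 ± 0.079 in wild-type phenobarbital (SD, n = 4), -0.43 ± 0.61 in knockout control (n = 7) and -0.64 ± 0.52 in knockout phenobarbital arrays (n = 7). The range was -1.41 to 0.092 in knockout control arrays, which overlaps the wild-type control range of -0.18 to 0.17. In knockout phenobarbital arrays it was -1.36 to -0.086 and in wild-type phenobarbital arrays 0.027 to 0.20, without overlap. These differences are described and not tested, because the lists were assembled with results of these data known.

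**Figure D4:**
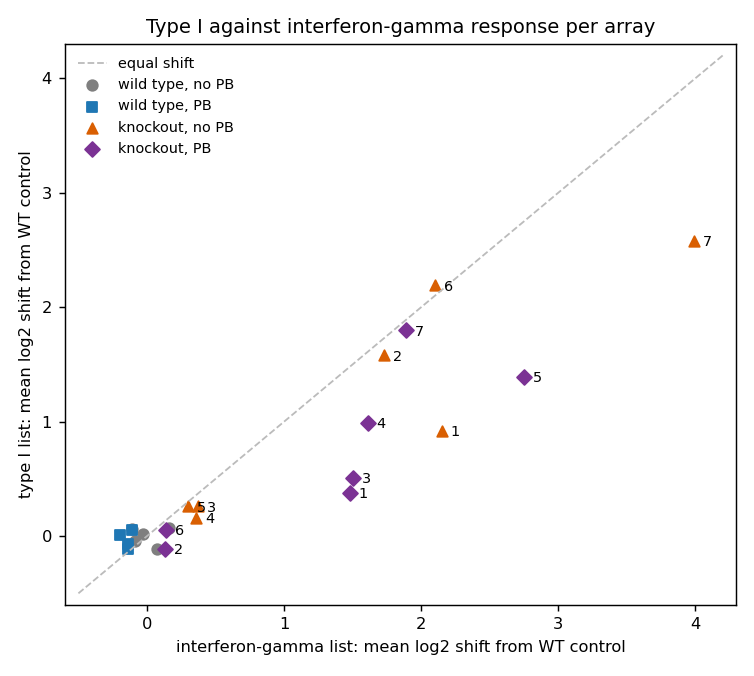
Each point is an array, with the mean log2 shift of the interferon-gamma list on the x axis and of the type I list on the y axis, both from the wild-type control mean; knockout arrays carry their replicate number and the dashed line marks equal shifts. Knockout control arrays 2 and 6 and knockout phenobarbital array 7 lie near the line, and knockout control arrays 1 and 7 and knockout phenobarbital arrays 1, 3, 4 and 5 lie below it by 0.63 to 1.41.

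Of 4 interferon genes measured, 3 were at or near the floor. Ifng, the gene of interferon-gamma, was under the floor in 22 of 23 arrays, between 2.48 and 3.73, and was not tested. The exception, seen after the values were known, was knockout control array 7 at 6.04, the array with the highest interferon-gamma list. The values under the floor are background, so their order is not read. Ifnb1 was under the floor in 16 arrays and Ifna4 in all 23, and Ifna1, between 5.45 and 6.23, was not called.

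Of the other genes of the pathway, 29 signalling genes and 36 further targets were tested. Without phenobarbital 8 signalling genes were called higher in knockout liver, among them the receptor chains Ifnar1 (0.19), Ifnar2 (0.39), Ifngr2 (0.63) and Il10rb (1.01, adjusted p = 0.00189) and the kinases Jak1 and Tyk2, and 0 lower. Of the further targets 13 were called higher and 0 lower, with the largest changes for Trim30a (1.65, adjusted p = 0.0162), Ifi204 (1.65, adjusted p = 0.045, under the floor in 16 arrays), Samd9l (1.42, adjusted p = 0.021), Rtp4 (1.16, adjusted p = 0.0285) and Lgals3bp (1.10, adjusted p = 0.00266). The lists' medians were 0.28 and 0.82, and 14.8% of all genes were called higher. With phenobarbital 5 signalling genes were called higher and 1 lower, and 4 further targets higher and 0 lower, with medians of 0.19 and 0.58. The share of further targets called higher was then no higher than the 11.9% of all genes. Phenobarbital changed 0 further targets in either genotype, and among the signalling genes it lowered Irf5 in the wild type (-0.58, adjusted p = 0.0116).

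Macrophage markers moved with the members. Of 12 tested markers of Kupffer cells and macrophages, 11 were called higher in the knockout without phenobarbital and 10 with it. Over all genes, 14.8% were called higher without and 11.9% with phenobarbital. The mean level of the 12 was 6.90 to 7.63 in wild-type control, 6.86 to 7.12 in wild-type phenobarbital, 7.78 to 10.28 in knockout control and 7.66 to 9.77 in knockout phenobarbital arrays. With Itgam, the marker that was not tested, 13 markers were measured. Above the wild-type control mean the 13 stood on average at 2.06, 2.47, 2.85 and 2.31 in knockout control arrays 1, 2, 6 and 7 and at 0.44, 0.55 and 0.54 in arrays 3, 4 and 5. In knockout phenobarbital arrays 1 to 7 they stood at 1.18, 0.36, 1.46, 2.11, 2.30, 0.60 and 2.12. Their part in the members' changes was not tested. Itgam was under the floor in 21 arrays.

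Other cell types moved as well. Of all genes, 14.8% were called higher and 10.1% lower in the knockout without phenobarbital, and 11.9% and 8.12% with it. Endothelial markers were called higher in 5 of 6 and stellate markers in 4 of 6 without phenobarbital, and in 4 of 6 each with it. Pecam1, in the endothelial count of each diet, was under the floor in 17 arrays, among them all wild-type arrays. It passed the filter through knockout arrays alone, so its calls are no support. Neutrophil markers were called higher in 2 of 4 and 1 of 4, S100a9 in each. Mpo was under the floor in all 23 arrays. Of 8 tested T and NK cell markers, Cd3d (0.49) and Nkg7 (0.79) were called higher and Cd4 (-0.32) lower in the knockout without phenobarbital. With phenobarbital 0 were called. Nkg7 was under the floor in 14 arrays, among them all wild-type arrays. It passed the filter through knockout arrays alone, so its call is no support. The mean level of these 8 was 4.80 to 5.04 in wild-type and 4.94 to 5.47 in knockout arrays. The T cell genes Cd2 and Cd8b1 were under the floor in all 23 arrays and Cd3g in 20. Of 5 tested dendritic cell markers, 1 was called higher without phenobarbital and 2 with it. Jchain was called higher among 2 tested B and plasma cell markers on each diet, and 2 of 3 cholangiocyte markers without and 1 of 3 with phenobarbital. The part of these cell types in the members' changes was not tested.

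**Figure D5:**
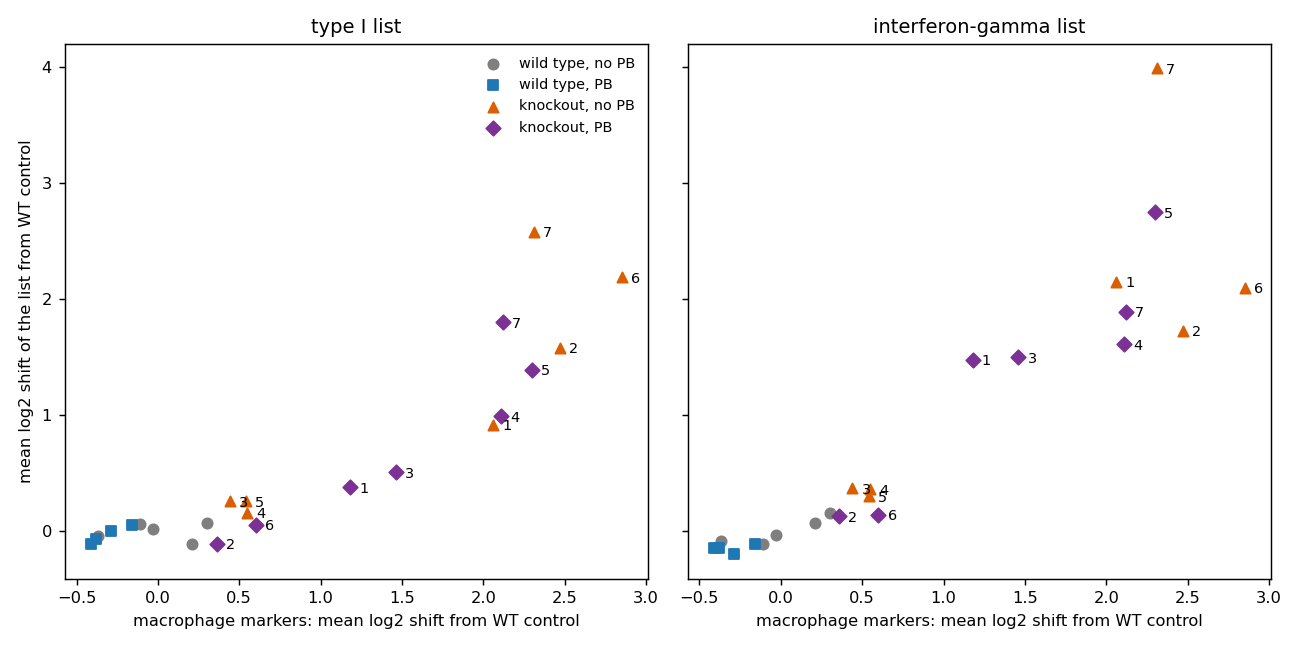
Each point is an array, with the mean log2 shift of the macrophage markers on the x axis and of the type I list (left) or interferon-gamma list (right) on the y axis; PB is phenobarbital and numbers are the knockout replicates. Arrays with macrophage shifts of at most 0.60 have list shifts of at most 0.37, while at macrophage shifts of 2.30 and 2.31 the interferon-gamma list stands at 2.75 and 3.99, and at the largest macrophage shifts, 2.47 and 2.85 in knockout control arrays 2 and 6, at 1.73 and 2.10.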

How the data were processed

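Deposited values are log2 signals from RMA, with the affy package named, per the submitters' processing notes. Their versions, and the role of each, are not given in the sources used here. RMA includes a normalization across arrays, so a shift shared by all genes is not seen. From the 45037 probe sets, 34945 name 1 gene in the platform annotation, 932 several and 9160 none. Per gene the probe set with the highest mean was kept. Genes above the array's 40th percentile in at least 4 of 23 arrays were tested with limma 3.58.1 in R 4.3.3 (group means, eBayes, Benjamini-Hochberg adjustment), which was tested on simulated data. The 5 comparisons and the promoter search followed. Named with full values are members called in any comparison, and of the rest 1 per role, the highest in mean. Alternatives were filters, normalizations, probe set means, priors, array weights, a replicate block, fewer groups and left-out arrays. The members, the 2 lists and the marker and pathway lists were chosen with earlier results of these data known. The number of arrays limits the precision.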

Additional observations from a re-analysis of the deposited data

Results flagged for a closer look

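Among 136 sets of 4 to 7 arrays of 1 group, for the members and the 2 list means, 5 held an array set far apart from the rest. In independent sets chance would give about 1 in 20, and 5 is no more than that. These sets share arrays, and the members were high in the same knockout arrays, so the count cannot settle which are chance. Stat2 stood at 6.41 in wild-type control array 4, the others at 6.75 to 6.84. Without that array its difference between genotypes on the control diet was 0.33 (limma, adjusted p = 0.0419) and its interaction -0.61, no longer called (adjusted p = 0.086). Stat2 also stood at 7.16 in knockout phenobarbital array 3, the others at 6.57 to 6.72. Without it the fall with phenobarbital in the knockout was -0.48 (adjusted p = 0.00803) and the difference between genotypes on phenobarbital -0.35, then called (adjusted p = 0.0255). Irf9 stood at 7.39 in wild-type control array 5, the others at 7.56 to 7.64, and Gbp3 at 6.20 in wild-type phenobarbital array 4, the others at 6.56 to 6.57. Irgm1 stood at 12.32 in knockout control array 7, the others at 9.50 to 10.66.

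Stat2 was the member whose phenobarbital effect differed between the genotypes by the interaction test (-0.68). The other 31 members had no interaction call.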

How the results depend on the processing

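Members called higher without phenobarbital between genotypes numbered 19, and 7 to 28 with 1 array left out, 2 with array weights, 2 with a replicate block, 1 with only the groups compared and 1 without knockout control arrays 2, 6 and 7, a setting chosen after seeing the data. With phenobarbital the count was 6, and 2 to 17 with 1 array left out. It was 19 with array weights, 1 with the replicate block, 15 with only the groups compared and 22 without those 3 arrays. With the replicate block 8.77% of all genes were called higher without phenobarbital and 6.65% with it. The members' share lay below these on each diet. Members lower between genotypes on phenobarbital were 0, and 1 (Stat2) with quantile normalization, probe set means or array weights, and 0 to 1 with 1 array left out. In the knockout the 1 member lowered by phenobarbital was 0 with array weights, the replicate block, only the groups compared and without the 3 arrays, and 0 to 1 with 1 array left out. Members raised there were 0, and 1 (Bst2) without the 3 arrays. In the wild type 1 member (Tap1) was lower with only the groups compared. The interaction's 1 call was 0 with no filter, median centring or the replicate block, and 0 to 1 with 1 array left out. Type I minus interferon-gamma kept its sign, from -0.52 to -0.27 in knockout control, -0.73 to -0.52 in knockout phenobarbital and 0.073 to 0.16 in wild-type phenobarbital arrays. Knockout control arrays 2, 6 and 7 had 31, 31 and 32 of the 32 members above all wild-type arrays, so leaving them out takes away high values. They are not in the comparison of genotypes on phenobarbital, so its log2 changes stay the same without them. Its calls then move through the variance shared by the groups and the set of genes tested. Other causes of these changes were not tested. Deviations of arrays with the same replicate number correlated from -0.695 to 0.628. These values differ in sign, so they cannot settle whether the number pairs the arrays. Quantile normalization moved the share of higher calls over all genes, phenobarbital in the knockout, from 57.0% to 67.5%, and it was 45.4% without the 3 arrays, 49.9% with array weights and 50.8% with probe set means.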
